A study of Mus musculus with 2 samples.

Results

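The genes described here are those of apoptosis and the p53 pathway in the mouse uterus at G2.5, before implantation, with VEGF expressed or repressed. They were taken from the deposited gene table by symbol, as caspases, the BCL2 family, inhibitor of apoptosis proteins, Apaf1, Fas, p53 (Trp53) with its regulators MDM2 and MDM4 and the genes whose symbol begins with Trp53, and the p53-linked genes Cdkn1a, Perp, Gadd45 and Sesn1 to Sesn3. The rule found 51 of the 14678 genes in the table. DGE profiling, which counts short sequence tags assigned to genes, had been run on 1 Dox+ library and 1 Dox- library, each from the pooled RNA of 3 uteri. All animals were littermate females of 9 to 10 weeks carrying VEGFtetO/tetO/beta-AKtg/wt, in which 4 tet operator copies sit in the Vegfa promoter region and a tetR-Krab repressor is driven by the β-actin promoter throughout the body. Dox+ mice stayed on doxycycline food (200 mg/kg), which keeps the repressor off Vegfa, so that this control, which the labels call wild type, carried both transgenes. Dox- mice were moved to regular food at 3 to 4 weeks, which lets the repressor bind, and females of both groups were mated before collection. Doxycycline was in the food of the Dox+ group alone at collection, so its presence and VEGF expression cannot be told apart.

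Apoptosis runs along 2 arms. In the mitochondrial arm the BCL2 family decides whether BAX and BAK1 open the outer membrane, after which APAF1 activates caspase 9, while in the death receptor arm FAS and its relatives activate caspase 8, and both end in the executioner caspases. The p53 protein is a transcription factor that is held low by MDM2, itself a p53 target, and that switches on genes of growth arrest, stress defence and death. In the cycling uterus apoptosis is known for the turnover of the epithelium and, after implantation, for the removal of epithelium at the attachment site.

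Among the 25 members with enough tags for a comparison, a stress gene rose most and the p53 gene, a BAX relative and sestrin genes fell. Gadd45g rose 6.19-fold in the Dox- library, Sesn1 fell 3.02-fold, Bok fell 2.60-fold and Trp53 fell 1.58-fold. The guardians Bcl2l1 and Bcl2l2 also fell, while Mcl1, the guardian with the most tags, was 1.45-fold higher, just under the 1.5-fold limit. Apaf1 and Casp8, which act at the start of the caspase cascade, rose, while Casp2 was 1.35-fold lower, also under that limit. Bcl2l2 and Casp8 did not pass the limit under every scaling of the libraries. With an assumed coefficient of variation between pools of 0.2, only Gadd45g, Sesn1 and Bok were still counted as changed, and with 0.4 none was. Casp6, an executioner caspase, had too few tags for a comparison.

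Promoter sequences are shown first for the GADD45 family, since Gadd45g had the largest ratio of the members compared, and then for the members that hold a p53 decamer near their start. Sequences are those of RefSeq, 250 bases before to 50 after the transcription start, from a table on GRCm38.p6 that held 44 of the 51 members. Perp, Gadd45gip1, Trp53inp1, Trp53rk and Pmaip1 were among those with no entry. Each sequence was located by exact match on NCBIM37, the assembly called mm9, and is given on the strand of its gene. Capitals mark the p53 decamer consensus or, in the GADD45 family, the letters CACGTG, an E-box, which was searched after the promoters had been read. Both motifs read the same on either strand, so each search covers both, and none of the 3 promoters printed whole holds both motifs.
Gadd45g, chr13:51941794-51942093, plus strand: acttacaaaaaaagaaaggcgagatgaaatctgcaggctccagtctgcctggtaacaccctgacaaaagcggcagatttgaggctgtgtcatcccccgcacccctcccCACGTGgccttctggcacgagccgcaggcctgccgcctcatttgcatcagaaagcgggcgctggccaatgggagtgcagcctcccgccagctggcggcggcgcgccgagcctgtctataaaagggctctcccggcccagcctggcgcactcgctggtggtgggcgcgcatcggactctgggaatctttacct
Gadd45b, chr10:80392586-80392885, plus strand: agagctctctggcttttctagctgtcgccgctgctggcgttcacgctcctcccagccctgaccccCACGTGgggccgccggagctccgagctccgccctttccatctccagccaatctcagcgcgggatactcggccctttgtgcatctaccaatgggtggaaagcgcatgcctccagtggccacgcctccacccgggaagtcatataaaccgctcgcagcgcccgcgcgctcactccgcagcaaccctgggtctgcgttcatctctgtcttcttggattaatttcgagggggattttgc
Gadd45a, chr6:66987352-66987651, minus strand: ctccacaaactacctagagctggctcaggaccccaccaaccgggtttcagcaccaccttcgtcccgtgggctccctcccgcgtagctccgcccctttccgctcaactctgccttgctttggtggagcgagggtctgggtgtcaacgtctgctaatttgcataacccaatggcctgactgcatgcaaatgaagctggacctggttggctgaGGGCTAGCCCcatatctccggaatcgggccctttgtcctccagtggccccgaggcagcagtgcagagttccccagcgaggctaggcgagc
The E-box stood 142 bases before the start of Gadd45g and 185 bases before that of Gadd45b, and the Gadd45a window held none. It was present in 7.15% of all 32851 windows in the table, and in those of 7 members, Trp53, Gadd45g, Gadd45b, Bax, Bbc3, Fas and Casp1.

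The p53 decamer was found in 7 of the 58 windows of the members (12.1%), against 8.36% of all windows. Of these 7 genes, Trp53 and Sesn1 fell, none rose, Mdm2 and Bax did not pass 1.5-fold, and Cdkn1a, Gadd45a and Birc2 had too few tags. Among all genes compared 14.7% fell and 15.2% rose, and the decamer genes compared are too few to set against these shares. Perp, which rose, and Gadd45gip1, which fell, had no promoter entry and could not be searched. The stretches around the decamers of the other members are shown so that they can be compared with that of Gadd45a.
Sesn1, chr10:41607062-41607091, plus strand: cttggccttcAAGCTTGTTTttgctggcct
Trp53, chr11:69393776-69393805, plus strand: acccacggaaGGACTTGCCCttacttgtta
Mdm2, chr10:117147981-117148010, minus strand: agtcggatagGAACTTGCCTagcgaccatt
Bax, chr7:52722450-52722479, minus strand: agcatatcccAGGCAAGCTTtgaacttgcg
Cdkn1a, chr17:29227841-29227892, plus strand: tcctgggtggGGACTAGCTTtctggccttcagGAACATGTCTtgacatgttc
Birc2, chr9:7836777-7836806, minus strand: cagtcaacccAGGCTAGTCTcgaatttgcg
The Cdkn1a window alone held a pair of decamers within 13 bases of each other, with 12 bases between them, as did 24 windows in the whole table (0.0731%). The decamers of Sesn1, Trp53, Mdm2, Bax, Gadd45a and the first of Cdkn1a lay 173, 75, 186, 201, 40 and 73 bases before the start, and that of Birc2 began 10 bases after it. The Sesn1 start used here is internal to the gene, which the GENCODE annotation places at chromosome 10, 41530380 to 41628230. A match describes these letters only, and binding was not measured.

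Both libraries were of like depth. The deposited TPM values, tags per 1000000 clean tags, imply 5985925 clean tags in Dox+ and 5844314 in Dox-, of which 74.1% and 72.2% were assigned to genes. Vegfa, the repressed gene, had 247 copies in Dox+ and 125 in Dox-, and so was 1.93-fold lower (95% interval 1.55 to 2.41). The uterine genes Esr1, Pgr, Hoxa10, Hoxa11 and Msx1 were all present in both libraries, with Esr1 and Pgr higher and the other 3 lower in Dox-. Cell type markers moved between the libraries. The summed level of 7 epithelial markers was 942 TPM in Dox+ and 1439 TPM in Dox-, that of 9 leukocyte markers 134 and 197 TPM, that of 6 stromal markers 1638 and 1258 TPM, that of 5 smooth muscle markers 3349 and 2098 TPM, and that of 6 endothelial markers 181 and 119.9 TPM. By the rule given below, 6, 3, 6, 5 and 3 markers of these lists could be compared. Of these, 2, 1, 1, 0 and 0 rose and 0, 0, 3, 3 and 2 fell. Of all genes compared, 15.2% rose and 14.7% fell. Among the endothelial markers compared, Cdh5 and Tie1 fell, and Pecam1 had 243 (Dox+) and 253 copies (Dox-). No marker was at 0. Most of the difference in the stromal sum came from Hoxa10, which is also on the list of uterine genes. Without it the sum was 1117 (Dox+) and 1077 TPM (Dox-) over 5 markers, with Lum and Dcn higher and Vim, Pdgfra and Hand2 lower. In pooled whole uterus a smaller number of cells and less RNA per cell cannot be told apart, and the part of these shifts in the results below was not tested.

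A gene was compared when its copies in both libraries summed to at least 200, and it was counted as risen or fallen in Dox- when the Audic-Claverie test gave an FDR under 0.05 and the fold change was at least 1.5. With 1 library per condition this compares the libraries and not the conditions, there is no replicate check, and the 95% intervals given cover counting error only. Of the 25 members compared, 5 rose (20%) and 7 fell (28.0%), where 15.2% of all 6547 genes compared rose, 14.7% fell and 29.9% did either. The 12 members called in all were therefore read against a background in which such calls are common. The share that rose lies near it and the share that fell lies above it, and neither difference was tested. With the TMM scaling of edgeR, 2 members rose and 7 fell, where 925 and 1020 of all 6547 genes compared did. At 2-fold 1 member rose and 2 fell, 3 in all, against 4.61%, 5.62% and 10.2% of all genes. The median log2 ratio of the members was -0.01, close to the 0.03 of all genes compared, and 11 members lay above 0 and 14 below.

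**Figure D1:**
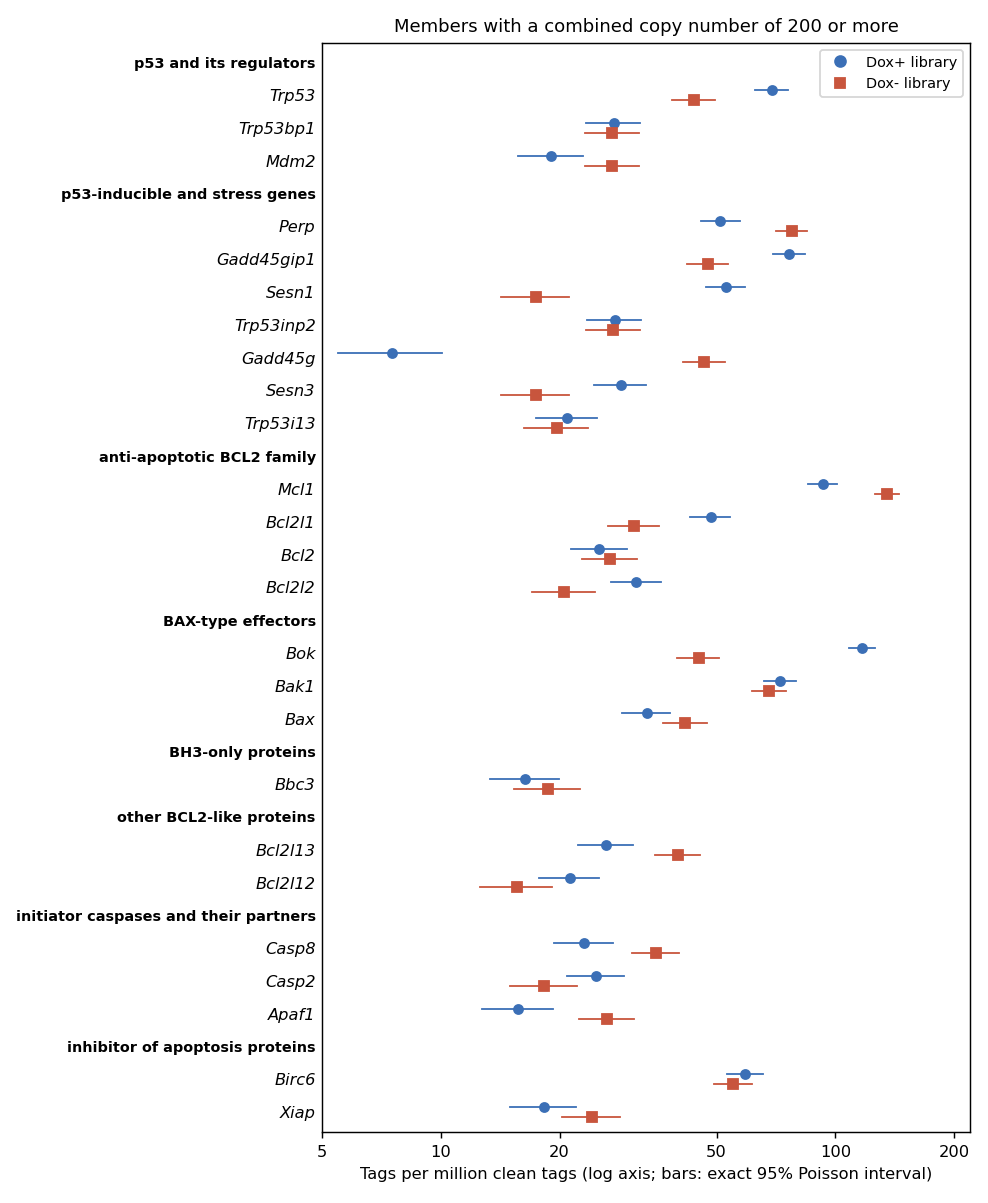
Level of the 25 members with at least 200 combined copies in the Dox+ library (circles) and the Dox- library (squares), in TPM on a log axis, grouped by role, with exact 95% Poisson intervals of each count. Gadd45g at 7.52 and 46.5, Sesn1 at 52.8 and 17.5 and Bok at 117 and 45.0 are the widest pairs.

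**Figure D2:**
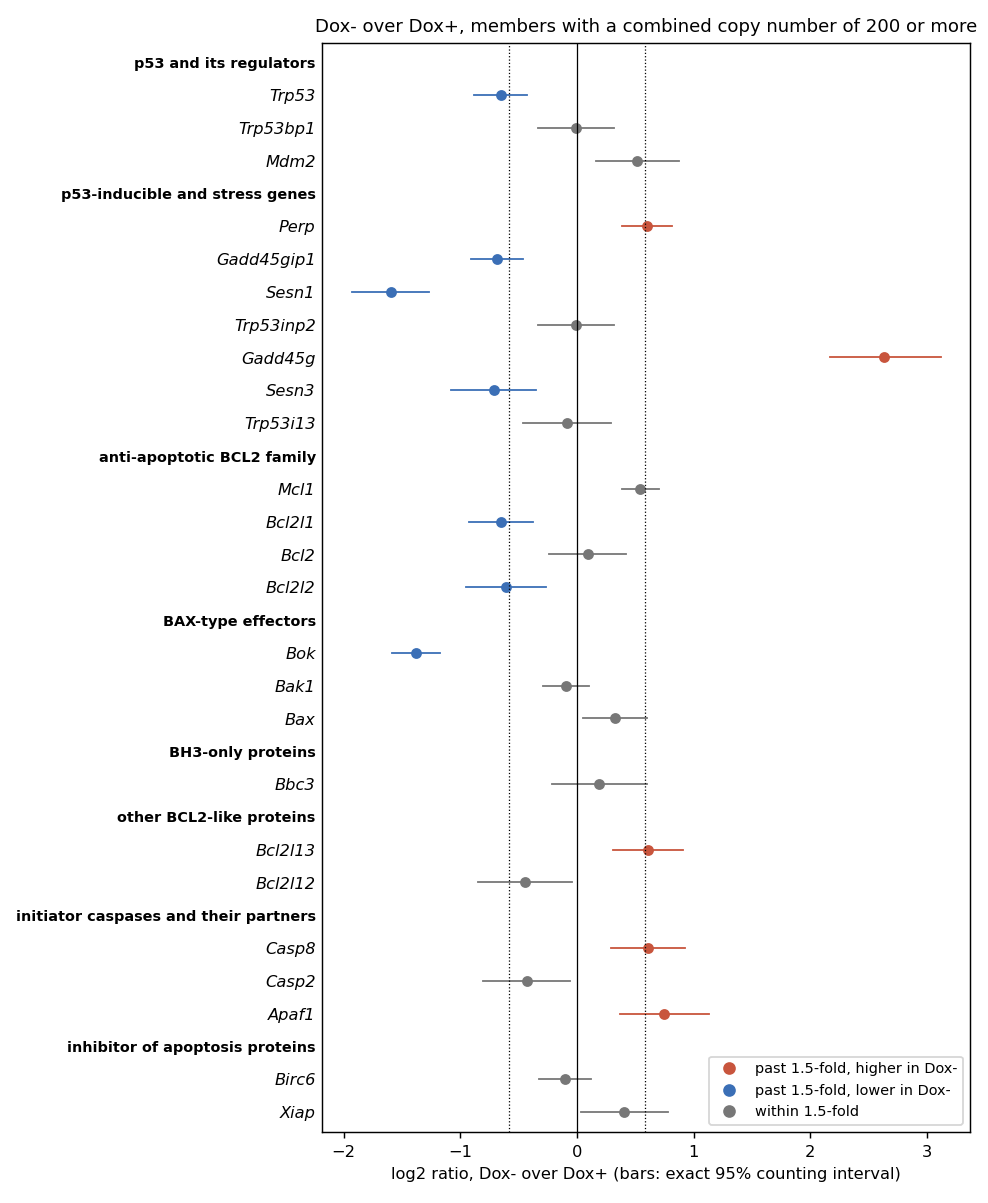
Log2 ratio, Dox- over Dox+, of the same 25 members with exact 95% counting intervals, where dotted lines mark 1.5-fold. The intervals of Gadd45g, Sesn1 and Bok lie wholly beyond 1.5-fold, and those of the other 9 coloured members cross the dotted line.

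The gene of p53 itself fell, and that of its main inhibitor did not pass the threshold. Trp53 (chromosome 11, 69393861 to 69405375, plus strand) fell from 413 copies in Dox+ to 256 in Dox-, 1.58-fold (1.34 to 1.85). Mdm2, the ubiquitin ligase that marks p53 for degradation, had 114 and 159 copies, a ratio of 1.43 (1.12 to 1.83) that was above counting error but under 1.5-fold. The number of Mdm2 tags per Trp53 tag, which does not depend on the scaling of the libraries, was 0.276 in Dox+ and 0.621 in Dox-, a 2.25-fold change (1.67 to 3.03). This pair, like the other pairs below, was chosen after the values were seen. Trp53bp1, which encodes a DNA break repair protein that binds p53, had 164 and 159 copies and differed by less than counting error. Mdm4, the inhibitor of p53 transactivation, had 3 and 11 copies, a ratio of 3.76 with an interval of 0.992 to 21.0. Trp53bp2, an activator of p53, had 96 and 86 copies and Trp53rk, a p53 kinase, 30 and 32. The intervals of these 3 low genes all held 1.

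Of the 7 members compared in the group of p53-linked and stress genes, 2 rose and 3 fell. Of all genes compared, 15.2% rose and 14.7% fell. The group holds genes matched by symbol alone, such as Gadd45gip1, so these are not counts of p53-induced genes. Gadd45g had the largest ratio. It encodes a small stress sensor that acts on p38 and JNK signaling and on cell cycle arrest. Gadd45g (chromosome 13, 51942047 to 51943837, plus strand) rose from 45 to 272 copies, 6.19-fold (4.50 to 8.69), and 23 of the 6547 genes compared rose more. The other members of its family had fewer tags. Gadd45a, a p53 target of the DNA damage response, had 34 and 51 copies, a ratio of 1.54 (0.976 to 2.45). Gadd45b had 0 copies in Dox+, which allows up to 0.501 TPM, and 2 in Dox-. The number of Gadd45g tags per Gadd45a tag was 1.32 in Dox+ and 5.33 in Dox-, a 4.03-fold change (2.26 to 7.11). Gadd45gip1, which is named for binding GADD45 proteins and works on the mitochondrial ribosome, fell from 458 to 278 copies, 1.61-fold (1.38 to 1.87).

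Sestrins restrain mTORC1 under stress, and both that could be compared fell. The share of all genes compared that fell was 14.7%, and so few sestrins cannot be set against it. Sesn1 (chromosome 10, 41530380 to 41628230, plus strand) fell from 316 to 102 copies, 3.02-fold (2.41 to 3.82). Sesn3 (chromosome 9, 14080745 to 14130582, plus strand) fell from 171 to 102 copies, 1.64-fold (1.27 to 2.11). The fall of Sesn1 was the larger, as Sesn1 tags per Sesn3 tag went from 1.85 to 1.0, a ratio of 0.541 (0.383 to 0.765). Sesn2 had 5 copies in Dox+ and 0 in Dox-, which allows up to 0.513 TPM, too few to compare.

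The remaining p53-linked genes did not share a direction. Perp (chromosome 10, 18564877 to 18576879, plus strand), a p53 target that also belongs to epithelial desmosomes, rose from 306 to 453 copies, 1.52-fold (1.31 to 1.76), and lost this call with TMM or median-ratio scaling. The 7 epithelial markers, which share its tissue, summed to 1.53 times their Dox+ level in Dox-. Cldn7 rose most, from 147 (Dox+) to 387 TPM (Dox-), and Epcam also rose. The other 4 compared were higher in Dox- but under 1.5-fold, and Foxa2 had 35 (Dox+) and 34 copies (Dox-). The part of the epithelium in the rise of Perp was not tested. Cdkn1a, the gene of the cell cycle inhibitor p21 and the best known p53 target, was below the filter with 38 and 69 copies, a ratio of 1.86 (1.23 to 2.84). Trp53inp1, a p53-induced gene of autophagy and cell death, missed the filter by 5 copies with 129 and 66 copies, and was 1.91-fold lower (1.41 to 2.61). Trp53inp2 had 165 and 160 copies, Trp53i13 had 125 and 115, and Trp53i11 had 93 and 90. The Dox- level of these last 3 was within counting error of the Dox+ level.

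In the anti-apoptotic part of the BCL2 family, 2 of 4 genes fell and none rose. Of all genes compared, 14.7% fell and 15.2% rose, and 4 genes are too few to set against these shares. Bcl2l1, which encodes BCL-XL (chromosome 2, 152593052 to 152657464, minus strand), fell from 289 to 180 copies, 1.57-fold (1.30 to 1.90). Bcl2l2, which encodes BCL-W, fell from 187 to 120 copies, 1.52-fold (1.20 to 1.93), and lost this call when the assigned tags were taken as library size. Mcl1, whose short-lived protein blocks BAK1 and BAX, went the other way with 556 and 789 copies, a ratio of 1.45 (1.30 to 1.62) that stopped just short of 1.5-fold. Bcl2 had 151 and 157 copies and differed by less than counting error. Mcl1 tags per Bcl2l1 tag went from 1.92 to 4.38, a 2.28-fold change (1.83 to 2.84), and Bcl2 tags per Bcl2l1 tag from 0.522 to 0.872, a 1.67-fold change (1.23 to 2.26). Summed over the 4 genes, the Dox+ level was 198 TPM and the Dox- level 213 TPM, and Mcl1 held the most tags of the 4 in both libraries.

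Of the effectors that form the mitochondrial pore, Bok fell while Bax and Bak1 did not pass 1.5-fold. Bok (chromosome 1, 95582271 to 95592339, plus strand), a BAX relative that does not depend on BCL-XL or MCL1 for its control, fell from 701 to 263 copies, 2.60-fold (2.26 to 3.01), and 163 genes fell more. Bax had 199 and 243 copies, a ratio of 1.25 (1.03 to 1.52), and Bak1 had 434 and 397, within counting error. Bax tags per Bok tag went from 0.284 to 0.924, a 3.25-fold change (2.55 to 4.15), and Bak1 tags per Bok tag from 0.619 to 1.51, a 2.44-fold change (1.99 to 2.98). The summed level of the effectors was 223 TPM in Dox+ and 155 TPM in Dox-. Summed levels of smooth muscle and endothelial markers were lower in Dox- too, and their part in the fall of Bok was not tested.

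The BH3-only proteins, which sense damage and neutralise the guardians, gave no call. Bbc3, which encodes PUMA, was the only one that could be compared and had 98 and 109 copies. Bcl2l11 (BIM) had 67 and 74 copies, Bid 47 and 61, Pmaip1 (NOXA) 18 and 9 and Bad 4 and 4. All 5 intervals held 1. Of the other BCL2-like genes, Bcl2l13, a mitochondrial outer membrane protein, rose from 157 to 233 copies, 1.52-fold (1.24 to 1.87), and lost the call with TMM or median-ratio scaling. Bcl2l12 had 127 and 91 copies, a 1.36-fold lower level (1.03 to 1.80) that was not called. Bcl2l15 had 48 and 27 copies, 1.74-fold lower (1.06 to 2.89), and Bcl2l14 had 26 and 21.

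Among the initiators of the caspase cascade and their partners, 2 of 3 genes compared rose and none fell. Of all genes compared, 15.2% rose and 14.7% fell, and 3 genes are too few to set against these shares. Casp8, the initiator under the death receptors (chromosome 1, 58852218 to 58904347, plus strand), rose from 138 to 205 copies, 1.52-fold (1.22 to 1.90), and lost the call with TMM or median-ratio scaling. Apaf1, the scaffold of the apoptosome (chromosome 10, 90452056 to 90545515, minus strand), rose from 94 to 154 copies, 1.68-fold (1.29 to 2.19). Casp2, an initiator that acts with the p53 pathway, had 148 and 107 copies, a 1.35-fold lower level (1.05 to 1.75). Casp9, the caspase that APAF1 activates, had 58 and 42 copies and an interval that held 1. Apaf1 tags per Casp9 tag went from 1.62 to 3.67, a 2.26-fold change (1.37 to 3.74), and Casp8 tags per Casp2 tag from 0.932 to 1.92, a 2.05-fold change (1.46 to 2.90). Casp8ap2, a caspase 8 partner that also works in histone gene expression, had 22 and 43 copies, a ratio of 2.0 (1.17 to 3.51), and the death receptor Fas had 21 and 10, an interval that held 1.

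The executioner Casp6 could not be compared. It had 52 and 68 copies, and the interval of its ratio held 1. The inflammatory caspases Casp1, with 73 and 66 copies, and Casp4, with 48 and 40, and the endoplasmic reticulum caspase Casp12, with 100 and 98, also differed by less than counting error. The leukocyte markers beside them summed to 1.47 times their Dox+ level in Dox-, largely through Laptm5, at 37.4 (Dox+) and 76.3 TPM (Dox-). Csf1r, with 186 and 181 copies, and Tyrobp, with 211 and 158, did not rise. The other 6 leukocyte markers, all higher in Dox-, had too few tags to compare. Inhibitors of apoptosis, which block caspases or tag them for degradation, gave no call and had summed levels of 89.5 (Dox+) and 90.0 TPM (Dox-). Birc6 had 354 and 322 copies, Birc3 57 and 57 and Birc2 16 and 6, each within counting error. Xiap, the direct inhibitor of executioner caspases, had 109 and 141 copies, a ratio of 1.32 (1.02 to 1.72).

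**Figure D3:**
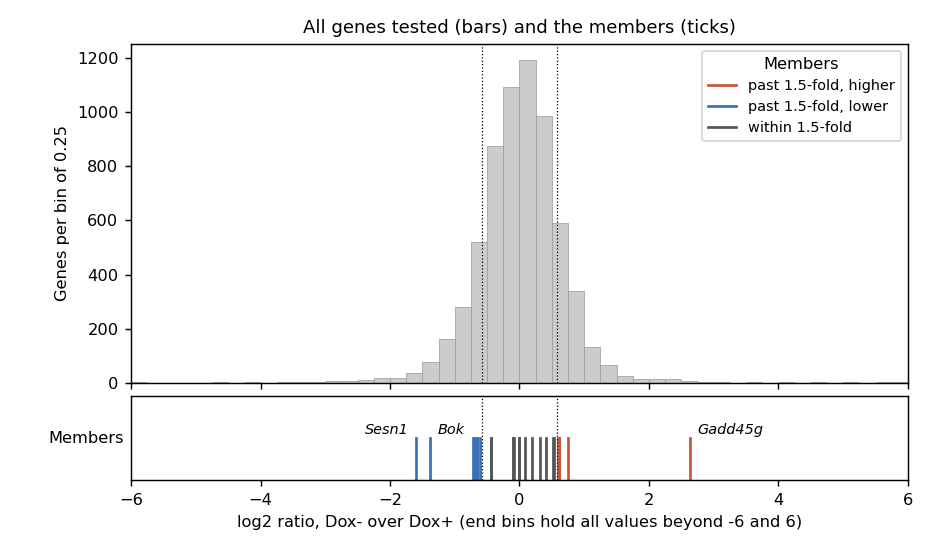
Log2 ratio, Dox- over Dox+, of all 6547 genes compared (bars, genes per bin of 0.25) and of the 25 members (ticks below), with dotted lines at 1.5-fold. Of the 25 members 13 lie within 1.5-fold and 12 past it, where 29.9% of all genes compared lie past it. Gadd45g, Sesn1 and Bok lie in the tails of the distribution.

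**Figure D4:**
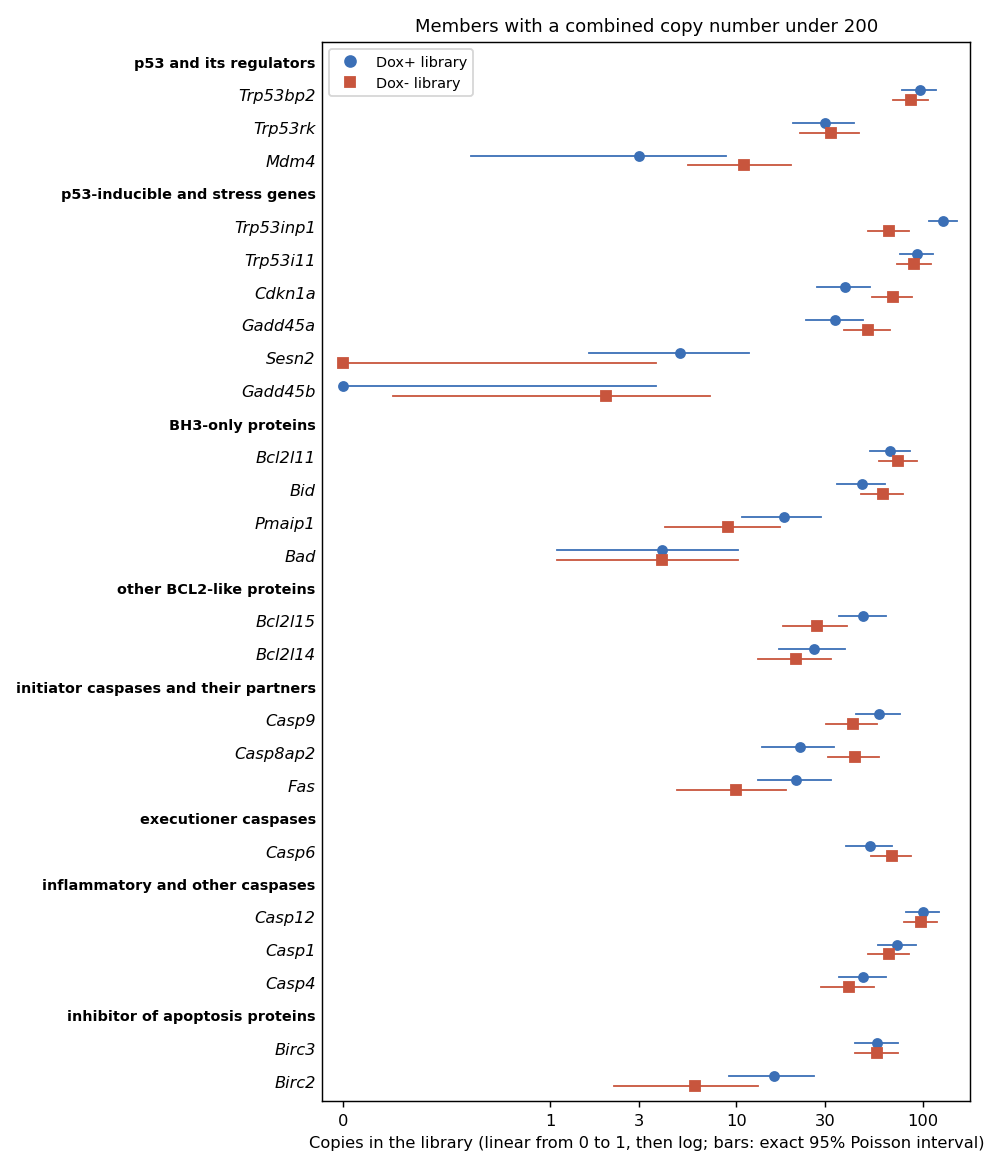
Copies of 24 of the 26 members with fewer than 200 combined copies in the Dox+ library (circles) and the Dox- library (squares), on an axis linear to 1 and log above, with exact 95% Poisson intervals. Trp53inp1 and Cdkn1a alone have bars that do not overlap.

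In all, 26 of the 51 members fell under the filter, with 2 to 198 combined copies. The interval of the ratio left out 1 for 4 of them, on the higher side for Cdkn1a and Casp8ap2 and on the lower side for Trp53inp1 and Bcl2l15. Of the 13 members compared that were not called, 6 had intervals that left out 1, namely Mcl1, Mdm2, Bax and Xiap on the higher and Casp2 and Bcl2l12 on the lower side. For the other 7 the interval held 1.

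A list of 96 further genes of the pathway, written by hand outside the rule, had 89 genes in the table and 51 that could be compared. Of these 9 rose (17.6%) and 6 fell (11.8%), against 15.2% and 14.7% of all genes compared, with a median log2 ratio of -0.0039. With TMM scaling 6 rose and 7 fell, where 925 and 1020 of all 6547 genes did. These shares lie near the background. The largest rises were those of Sfn, Plk2 and Birc5. Sfn, which encodes the p53-induced 14-3-3 sigma protein of epithelia, rose from 49 to 388 copies, 8.11-fold (6.01 to 11.2). The summed level of the epithelial markers, described above, was higher in Dox- too, and its part in the rise of Sfn was not tested. Plk2, a stress-induced kinase and p53 target, rose from 42 to 181 copies, 4.41-fold (3.14 to 6.33). Birc5, which encodes survivin, a mitotic protein of the same family as XIAP, rose from 184 to 404 copies, 2.25-fold (1.88 to 2.69).

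The largest falls on that list were in genes of the cell surface and the extracellular space. Tnfrsf21, a death receptor, fell from 668 to 99 copies, 6.59-fold (5.33 to 8.22). Igfbp3, a secreted binder of insulin-like growth factors, fell from 602 to 135 copies, 4.35-fold (3.61 to 5.29). Thbs1, the secreted angiogenesis inhibitor thrombospondin 1, fell from 608 to 241 copies, 2.46-fold (2.12 to 2.87). Among the 26 listed p53 targets that could be compared 7 rose and 4 fell, and among 14 genes of the mitochondrial arm and execution 2 rose and 1 fell. Of 8 death receptor genes and adaptors 1 fell, and none of the 4 kinases and regulators of p53 was called. These counts are to be read against the same background.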

How the data were processed

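Uterine RNA of 1 Dox+ and 1 Dox- library, each 6 µg of total RNA pooled from 3 uteri, was measured by DGE tag profiling. The authors removed adaptor-only, low quality and single tags (base calling with CASAVA, per the labels), aligned the clean tags to mm9 reference mRNAs and counted unambiguous tags per gene. The aligner, the restriction enzyme and whether antisense tags entered the copies are not given in the sources used here, so genes that overlap others are uncertain. The labels describe RNA fragmentation where the paper describes tags. The deposited counts are these copies, not normalized. The deposited TPM values are copies per 1000000 clean tags, without length correction, with 0.01 for a count of 0. The table's columns of ratios, P-values and FDR, the authors' own comparison, were not used.

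Library sizes were the clean tag totals that all deposited TPM values allow. Members were grouped by role. The Audic-Claverie test was two-sided with Benjamini-Hochberg adjustment over all 14678 genes. All genes past 1.5-fold at 200 combined copies passed the FDR. Intervals are exact (Clopper-Pearson for a gene, conditional for ratios of 2 genes). Since 3 counts is the limit a count of 0 allows, no fold change was taken against fewer. Members, gene lists and the rule for naming genes (all members, the 3 largest changes each way of the further list, Vegfa) were chosen with earlier results of these data known. Positions are from GENCODE on NCBIM37. The call rule was tested on simulated data that held counting error only, with changes larger than those of most members called. That test cannot decide how the rule does near 1.5-fold or with variation between pools. Alternatives were other library scalings (assigned tags, TMM, median ratio), filters of 100 copies and none, a pseudocount of 1, Fisher's exact test, an assumed variation between pools in edgeR and a 2-fold threshold. Python 3.11.15, numpy 2.4.6, scipy 1.17.1, pandas 2.3.3, matplotlib 3.10.9, R 4.3.3 and edgeR 4.0.16 were used. Of the members below the filter, 2 are counted but not reported here.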

Additional observations from a re-analysis of the deposited data

How the results depend on the processing

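The variation between pools, which 1 library per condition does not show, limited the calls most. When pools were assumed to vary with a coefficient of 0.2 (edgeR exact test), 1 member rose and 2 fell (Gadd45g, Sesn1 and Bok), 2 and 3 of the further pathway genes did, and 147 and 174 of all genes compared. With 0.4 assumed these counts were 0 and 0, 0 and 0, and 16 and 17. A 2-fold threshold gave 1 and 2 members, 4 and 3 further genes, and 302 and 368 of all genes. With TMM or median-ratio scaling 2 members rose in place of 5, since Perp, Casp8 and Bcl2l13 lie just past 1.5-fold. Without a filter 17 further genes rose, and 2044 of all genes rose and 2077 fell. The scalings moved the log2 ratios by at most 0.038, and the 12 calls were the same with a pseudocount of 1 and with Fisher's exact test. No called member reversed its direction, which shifts of this size could not bring about in a gene past 1.5-fold. Fisher's exact test, the assumed variation and the 2-fold threshold leave the ratio unchanged. No paired analysis was possible because each condition has 1 library, which also leaves no replicate to omit.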

Other observations

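Other routes of cell death were followed with lists written after the data had been seen. For autophagy, in which cells digest their own contents, 12 of 16 genes had enough tags, and 3 rose and 1 fell, where 29.9% of all genes compared were called in either direction. Sqstm1, the cargo receptor p62, rose from 682 to 1301 copies in Dox-, 1.95-fold (95% interval 1.78 to 2.15), while Map1lc3b, which encodes the autophagosome protein it binds, fell from 2209 to 1175 copies, 1.84-fold (1.71 to 1.97). Wipi1 rose from 291 to 459 copies and Ulk2 from 120 to 191, and Becn1 had 536 and 525.

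Of 8 genes of lipid peroxide defence and ferroptosis, 6 had enough tags, 2 rose and 1 fell, to be read against the same share. Slc7a11, the cystine importer, rose from 77 to 229 copies, 3.05-fold (2.34 to 4.0), and Tfrc, the transferrin receptor, from 118 to 336 copies, 2.92-fold (2.36 to 3.63). Gclm, a subunit of the enzyme that starts glutathione synthesis, fell from 177 to 108 copies. Gpx4, which removes lipid peroxides, had 3022 and 2691 copies. None of the 3 genes of necroptosis and pyroptosis with enough tags was called, and Ripk3, the necroptosis kinase, had 144 and 209 copies, a ratio of 1.49 (1.20 to 1.85). Il1b had 0 copies in Dox+, which allows up to 0.501 TPM, and 13 in Dox-, far under the filter of 200, and was not compared.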
